A study of Mus musculus with 30 samples.

Results

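The 8 transcription factors described here, Sox17, Foxa1, Foxa2, Foxa3, Gata4, Gata6, Hhex and Hnf4a, were chosen by name from the 29555 genes of both gene tables. With them were taken all peaks of open chromatin that lay in the gene or within 10 kb of either end. These were 67 of 158917 peaks in the table of B6 epiblast stem cells (EpiSCs) and definitive endoderm (DE), and 60 of 181059 peaks in the table of EpiSCs. RNA-seq measured transcript levels and ATAC-seq, in which a transposase cuts accessible DNA, measured open chromatin. The study compared EpiSCs with the DE made from them, and EpiSCs of several genetic backgrounds with each other.

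EpiSCs are pluripotent and resemble the epiblast shortly before gastrulation, the tissue from which the embryo proper arises. All EpiSC groups were untreated cells at passages 5 to 10, grown on feeder cells in N2B27-based medium with Fgf2, ActivinA and the Wnt inhibitor NVP-TNKS656. They came from the inbred strains C57BL/6 (B6), PWK/PhJ (PWK) and DBA/2J (DBA) and from the cross B6.129 F1. B6 DE was made from EpiSCs with CHIR99201, named so in the labels and given with ActivinA for 16 h, and then with ActivinA and LDN193189 for 24 h. The labels state a total of 46 h. Only CXCR4+ cells, sorted on magnetic beads, were kept, so DE was a selected fraction of a culture and EpiSCs were not sorted. For RNA there were 5 libraries of B6 EpiSCs, 4 of B6 DE, 3 of PWK EpiSCs, 3 of B6.129 F1 EpiSCs and 1 of DBA EpiSCs. For open chromatin there were 4 of B6 EpiSCs, 4 of B6 DE, 2 of PWK EpiSCs and 1 of DBA EpiSCs. Of the 3 PWK and 3 B6.129 F1 RNA libraries and the 2 PWK ATAC libraries, 1 each could be tied to its group but not to a replicate number and is called unnumbered. The labels number the libraries as BioRep and do not say whether these were separate lines or cultures, so p-values measure the spread between these libraries.

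The total counts were between 22829536 and 66563933 per RNA library and between 3751526 and 9571127 per ATAC library. As a check of the DE label, 9 of 10 markers of definitive endoderm outside the 8 factors rose in DE and none fell. Epcam, at 4.95 CPM (counts scaled by library size) or less in every B6 library, did not pass the test. The summed level of the 10 was between 10079 and 20776 CPM in DE and between 602 and 1533 CPM in EpiSCs. Cxcr4, the receptor used for the sort, is one of them. All 10 are counted again below, among genes upstream of endoderm or of early endoderm. Of 8 EpiSC markers, 5 fell and 1, Fgf5, rose, from between 149 and 256 CPM in B6 EpiSCs to between 1448 and 1720 CPM in B6 DE. Their summed level overlapped, at between 2558 and 3478 CPM in DE and between 2687 and 4089 CPM in EpiSCs. Without Fgf5 it was between 1110 and 1758 CPM in DE and between 2493 and 3855 CPM in EpiSCs. Most of the latter sum in DE was Dnmt3b, with between 1073 and 1735 CPM in DE and between 1139 and 1979 CPM in EpiSCs. Pou5f1, a core pluripotency factor, had 1127 CPM ± 175 in B6 EpiSCs (SD, n = 5), against 12.9 ± 16.7 in B6 DE (SD, n = 4). The library size is taken after scaling by trimmed mean of M-values. CPM do not account for transcript length, so levels are compared between libraries and not between genes. Markers of feeder fibroblasts summed to between 73.5 and 2540 CPM in B6 EpiSCs, with the highest sum in replicate 51, and to between 85.6 and 272 CPM in B6 DE.

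Definitive endoderm gives rise to the lining of the gut and to organs such as the liver and pancreas. It forms from epiblast cells that pass through the primitive streak under Nodal or Activin signalling, and the HMG-box factor Sox17, the forkhead factors of the Foxa group, the zinc finger factors Gata4 and Gata6 and the homeodomain factor Hhex are among its best known regulators. Foxa and Gata factors can bind sites in closed chromatin. Gata4, Gata6, Sox17, Hhex, Foxa2 and Hnf4a also act in extraembryonic endoderm, and Hnf4a, a nuclear receptor, is best known from visceral endoderm, liver and intestine.

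Sequences upstream of annotated starts were available for Foxa1, Foxa2, Foxa3, Hhex and Hnf4a in a RefSeq table of assembly GRCm38.p6. For starts of Foxa1, Hnf4a and Hhex that a peak of open chromatin reached, the 250 bases before the start are shown. They run 5′ to 3′ on the strand of the gene, with matches to the searched motifs in capitals. A start of Foxa2, with 89 of its bases in a peak that was not called, is not shown. The first is Foxa1, chr12:57546112-57546361, minus strand, and 47 of its bases lay in a peak that was more accessible in DE. The next ones are the upstream start of Hnf4a, chr2:163506607-163506856, and the start in the middle of that gene, chr2:163546905-163547154, both plus strand. The last is Hhex, chr19:37434591-37434840, plus strand, all of which lay in a peak.
Foxa1: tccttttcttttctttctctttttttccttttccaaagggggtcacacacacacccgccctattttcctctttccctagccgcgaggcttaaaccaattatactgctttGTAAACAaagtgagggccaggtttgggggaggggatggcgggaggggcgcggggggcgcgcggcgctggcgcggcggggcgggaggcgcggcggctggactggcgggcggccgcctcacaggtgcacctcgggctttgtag
Hnf4a upstream start: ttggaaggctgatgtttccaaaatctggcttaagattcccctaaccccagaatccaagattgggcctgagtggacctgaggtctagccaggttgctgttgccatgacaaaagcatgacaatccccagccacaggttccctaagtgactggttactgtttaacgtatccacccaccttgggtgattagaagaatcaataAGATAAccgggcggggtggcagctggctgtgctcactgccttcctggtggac
Hnf4a internal start: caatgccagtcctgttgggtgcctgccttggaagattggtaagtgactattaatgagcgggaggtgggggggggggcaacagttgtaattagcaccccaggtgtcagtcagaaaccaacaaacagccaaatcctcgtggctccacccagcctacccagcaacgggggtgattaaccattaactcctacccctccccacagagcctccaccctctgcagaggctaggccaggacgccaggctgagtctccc
Hhex: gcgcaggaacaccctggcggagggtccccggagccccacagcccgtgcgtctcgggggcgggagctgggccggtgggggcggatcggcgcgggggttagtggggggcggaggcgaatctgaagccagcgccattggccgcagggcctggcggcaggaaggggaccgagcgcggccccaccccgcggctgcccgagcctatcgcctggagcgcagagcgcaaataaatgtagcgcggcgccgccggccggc
The motifs were searched on both strands and did not overlap one another. They were TGTTTAC and TATTTAC for forkhead factors, AGATAA and TGATAA for Gata factors, ACAATGG and ACAATAG for Sox factors and TCACACC for T-box factors. The same 250 bases before the start were searched in 32851 RefSeq windows. Of these, 5.76% held a forkhead motif, 16.6% a Gata motif, 5.03% a Sox motif and 3.33% the T-box motif. The Foxa1 sequence held a forkhead motif on the opposite strand, printed as GTAAACA, at bases -141 to -135 counted from the start. This motif lay outside the peak, which took in only the 47 bases next to the start. The upstream start of Hnf4a held AGATAA at bases -52 to -47. The internal start of Hnf4a and the Hhex sequence held none of these letters. The Hhex sequence was 76.0% G and C, against a median of 52.4% over all windows. A match of letters is a description and not a site shown to be bound.

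Which of these factors change as EpiSCs become endoderm was read from B6 DE against B6 EpiSCs. Sox17, Hhex and Gata6 rose most on the log2 scale, by 7.80, 5.58 and 5.53. Foxa1, Foxa3 and Gata4 rose by between 3.30 and 3.96, and Foxa2 rose least, by 1.47. Hnf4a was near the limit of detection in both groups. The plot of transcript levels in each B6 library shows all 8 genes.

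**Figure D1:**
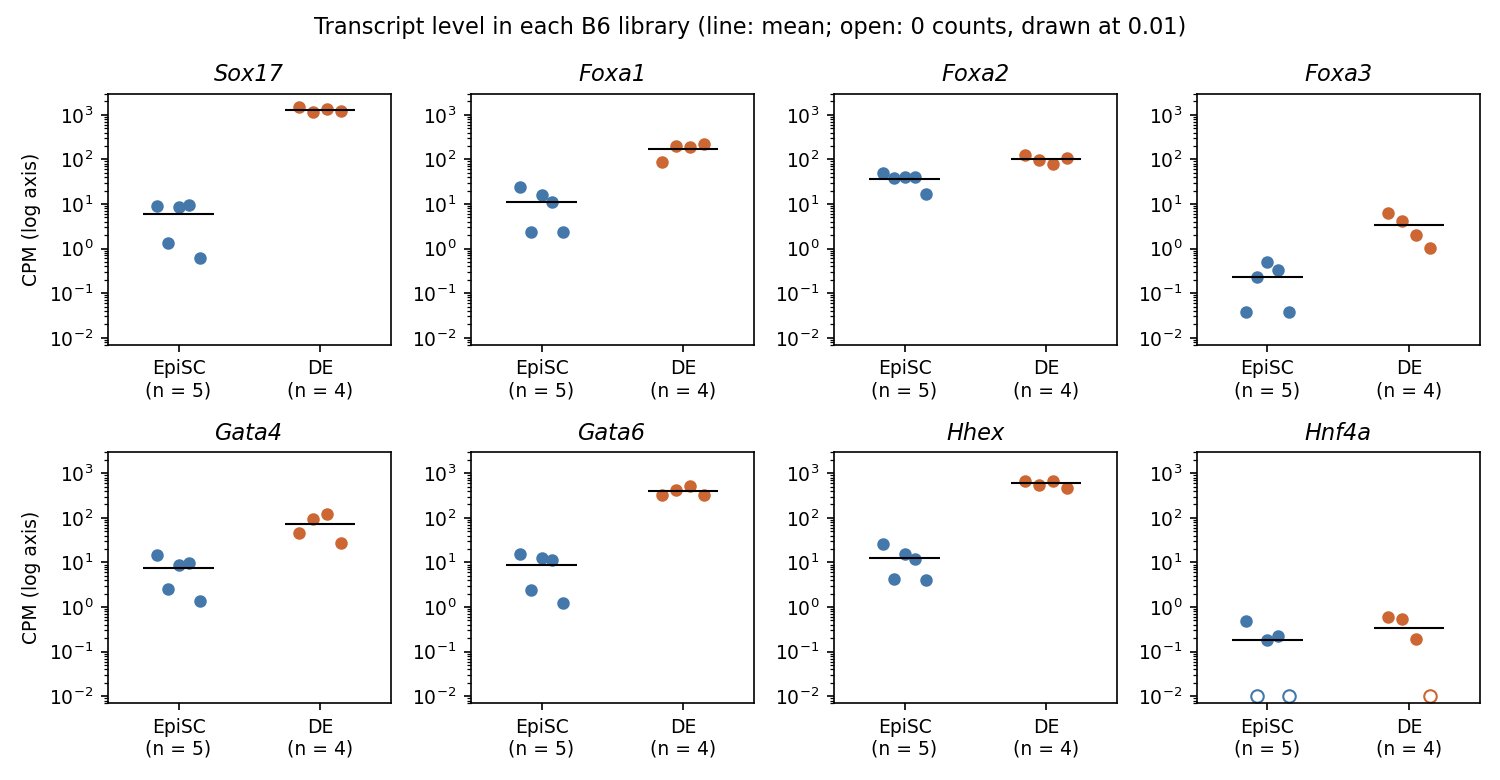
CPM of each gene (log axis) in every B6 EpiSC (n = 5) and B6 DE (n = 4) RNA-seq library, with the mean of each group as a line and libraries with 0 counts as open circles at 0.01. For 7 genes every DE library lay above every EpiSC library, and for Hnf4a the groups overlapped. Levels can be compared between libraries of a gene and not between genes.

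Sox17 (ENSMUSG00000025902, chr1:4490928-4497426), which is required for the gut endoderm of the mouse, had 1462, 1128, 1369 and 1244 CPM in DE replicates 2, 4, 44 and 51. In EpiSC replicates 1, 2, 4, 44 and 51 it had 8.88, 1.33, 8.73, 9.52 and 0.628 CPM. The DE libraries were close to one another and far above the EpiSC libraries, among which replicates 2 and 51 were low. The log2 change was 7.80 (SE 0.80, edgeR adjusted p 1.91e-05, where edgeR stands for its quasi-likelihood F test and adjustment for that of Benjamini and Hochberg over all features). This was rank 36 among 14085 genes ordered by log2 change. In bulk samples, more cells that express a gene and more RNA of it per cell cannot be told apart.

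Gata6 (ENSMUSG00000005836), a zinc finger factor of endoderm and heart, had 334, 416, 522 and 330 CPM in the 4 DE libraries, in the same order of replicates. The EpiSC libraries had 15.5, 2.40, 12.6, 11.5 and 1.26 CPM. The groups did not overlap, and EpiSC replicates 2 and 51 were again the lowest. Its log2 change was 5.53 (SE 0.68, edgeR adjusted p 6.59e-05). Gata4 (ENSMUSG00000021944, chr14:63198914-63271712), its close relative, had 45.8, 92.7, 125 and 27.5 CPM in DE and 14.7, 2.55, 8.91, 9.48 and 1.37 CPM in EpiSCs. The DE libraries of Gata4 spread 4.54-fold from lowest to highest, with replicate 51 the lowest, while those of Gata6 spread 1.58-fold. The lowest DE library was still above the highest EpiSC library, and the log2 change of Gata4 was 3.30 (SE 0.67, edgeR adjusted p 0.00165).

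Hhex (ENSMUSG00000024986, chr19:37434841-37440731), a homeodomain repressor of anterior endoderm and liver, had 678, 555, 688 and 465.9 CPM in DE. Its EpiSC libraries had 26.6, 4.27, 15.7, 11.8 and 4.10 CPM. The groups were far apart, and the log2 change was 5.58 (SE 0.57, edgeR adjusted p 1.86e-05).

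The 3 Foxa genes encode proteins that share a forkhead DNA-binding domain. Foxa2 (ENSMUSG00000037025, chr2:148042877-148046969), which is also needed for the node and notochord, had 48.6, 38.1, 39.6, 39.5 and 16.6 CPM in EpiSCs. It had 123, 95.5, 78.7 and 107 CPM in DE, so that the groups did not overlap, and its log2 change was 1.47 (SE 0.27, edgeR adjusted p 0.000839). Markers of the node and axial mesoderm, other tissues that express Foxa2, summed to between 121 and 727 CPM in EpiSCs and between 47.4 and 74.8 CPM in DE. Of these 6 markers none rose and 3 fell, namely T, Foxj1 and Shh, and their part in the level of Foxa2 was not tested.

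Foxa1 (ENSMUSG00000035451, chr12:57540628-57548029) had 88.4, 201, 185 and 223 CPM in DE, with replicate 2 the lowest. In EpiSCs it had 24.5, 2.40, 15.5, 11.2 and 2.36 CPM. The groups did not overlap, and the log2 change was 3.96 (SE 0.68, edgeR adjusted p 0.000528). Foxa3 (ENSMUSG00000040891, chr7:19013283-19023539), known for its role in liver and gut, had 6.31, 4.06, 2.03 and 1.02 CPM in DE, from 124, 245, 52 and 67 counts. In EpiSCs it had 1, 6, 14, 10 and 1 counts. It passed the filter on low counts through the DE libraries alone, and its log2 change was 3.86 (SE 0.83, edgeR adjusted p 0.00224).

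Hnf4a (ENSMUSG00000017950, chr2:163506811-163572907) had 12, 33, 5 and 0 counts in DE and 13, 0, 5, 7 and 0 counts in EpiSCs. Both groups held libraries with none, the groups overlapped, and the gene did not pass the filter, so that no fold change was tested. A count of 0 among the 65923900 scaled counts of DE replicate 51 and among the 26253900 and 27061500 of EpiSC replicates 2 and 51 allows for up to 3 counts, for counting error only.

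In all, 7 of the 8 genes were tested, and each was called higher in DE, against 31.5% of all genes tested. Their DE and EpiSC libraries did not overlap, as for 28% of all genes in this direction. Foxa3 is among the 7 although it had to be higher in DE to be tested. Under 16 alternatives of scaling, test, filter and libraries, 15 for Foxa3, each of the 7 stayed higher in DE and called. The lower bound of the log2 change was 5.92 for Sox17, 4.24 for Hhex, 3.91 for Gata6 and 0.83 for Foxa2 (95% confidence intervals of the fit, not adjusted over genes).

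Genes with a related role were read from the same fit, in which 30.6% of all genes were called lower. Of 10 tested relatives and cofactors of the 8 factors, 5 rose and 2 fell, with a median log2 change of 0.83, against -0.01 over all genes. Sox18, a relative of Sox17 known from blood vessels, had a log2 change of 5.85 (SE 0.57). For Gata1, a factor of red blood cells, it was 7.40 (SE 0.62), from a mean of 0.197 to 33.7 CPM. Tal1, which works with Gata1 in blood, was at 0 counts in every DE library, and Ptprc was at 0 counts as well. Foxd3, a forkhead factor of pluripotent cells and neural crest, fell by 8.77 (SE 1.11), from a mean of 26.8 to 0.102 CPM. Prox1, a factor of liver and lymphatic vessels, fell by 1.32 (SE 0.51, edgeR adjusted p 0.0431). Sox18 and Gata1 passed the filter on low counts through the DE libraries alone, and Foxd3 through the EpiSC libraries alone. Each had to be higher in that group to be tested, so its direction was set by the filter. Some other genes in this and the next lists also passed through a single group, and the counts include them.

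Of 16 tested genes that act upstream of endoderm, 10 rose and 3 fell, with a median log2 change of 1.15. Mixl1, Gsc and Lhx1, homeodomain factors of the primitive streak and organizer, rose by 3.88 (SE 0.46), 6.30 (SE 0.70) and 4.12 (SE 0.75) on the log2 scale. Eomes, a T-box factor that activates endoderm genes downstream of Nodal, rose from 76.4 to 201 CPM. The T-box factor T, of streak and notochord, fell by 5.02 (SE 0.76), and Tdgf1, a co-receptor of Nodal, fell by 2.24 (SE 0.23).

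Of 30 tested genes of early endoderm, 19 rose and 2 fell, with a median log2 change of 3.04. Foxq1, a forkhead factor outside the Foxa group, rose by 7.55 (SE 0.70), Lefty1, an antagonist of Nodal, by 6.62 (SE 0.26), and Cer1, a secreted antagonist of anterior endoderm, by 6.32 (SE 1.00) on the log2 scale. The 2 that fell were Apela and Shh, both by 3.46. Of 11 tested genes of later gut and liver, 5 rose and 2 fell, with a median of 0.03. Rbp4, a carrier of vitamin A, rose by 5.46 (SE 0.52), and Apoa1, an apolipoprotein of liver and gut, by 4.45 (SE 0.82). Apoa1 passed the filter through the DE libraries alone. Another 11 of the 22 listed genes did not pass the filter, and Ttr and Fgb, both made by liver, were at or under 3 counts in every DE library.

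Some of the 8 factors also mark other cells. Of 10 tested markers of visceral or parietal endoderm, 2 rose, namely Amn and Cited1, and 3 fell, namely Lrp2, Dab2 and Thbd. Their summed level was between 234 and 408 CPM in DE and between 306 and 1141 CPM in EpiSCs, and Ttr was at or under 3 counts in every DE library. Sparc made up most of this sum in every library, with between 204 and 381 CPM in DE and between 165 and 960 CPM in EpiSCs. Of 5 tested markers of mesoderm and heart, Isl1 and Pdgfra rose, and Kdr, Tbx6 and Twist1 fell. Their summed level was between 41.7 and 108 CPM in DE and between 21.3 and 33.3 CPM in EpiSCs, and Msgn1, Hand2, Nkx2-5 and Foxf1 were at or under 3 counts in every DE library. Of 4 tested markers of endothelium and blood, Gata1 rose and Tal1 fell, and the sum over all 7 was between 11.6 and 47.3 CPM in DE and between 2.62 and 3.54 CPM in EpiSCs. Gata1 made up most of the sum in DE, and the 6 other markers summed to between 0.469 and 2.14 CPM in DE and between 2.31 and 3.33 CPM in EpiSCs. Feeder markers fell in 9 of 11 cases and rose in none. Amn and Gata1 passed the filter through the DE libraries alone. Thbd, Kdr, Tbx6 and Tal1 passed through the EpiSC libraries alone, so the directions of all these were set by the filter. The part of these other cell types in the levels of the 8 factors was not tested.

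The genes whose levels were most like those of a factor over the 9 B6 libraries were found by Pearson's r of log2 CPM among 13142 genes with a symbol, as a description. All 9 libraries share the step between EpiSC and DE, and 1670 genes had an r over 0.9 with Sox17. Nearest to Sox17 were A4galt, Hsd11b2 and Gata6, with r between 0.995 and 0.996. Nearest to Gata6 were Flt1, Sox17 and Cer1, and nearest to Hhex were Fam210b, Camk1g and Ackr3. Nearest to Foxa1 were Fgf10, Hs3st3b1 and Ufl1, and nearest to Foxa2, with r between 0.971 and 0.980, were Gstm3, Thpo and Trip10. Klc3, Bend5 and Thap4 were nearest to Foxa3, and Reck, Stk32a and Tspan18 to Gata4.

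Chromatin near the genes was compared between B6 DE and B6 EpiSCs in the counts per peak. Of the 67 peaks near the 8 genes, 56 passed the filter. Of these, 28 were more accessible in DE (50%, against 32.6% of the 113870 peaks tested), 5 were less accessible (against 25% of all) and 23 were not called, all by edgeR. The median log2 change of the 56 was 0.76, against -0.01 over all peaks. With scaling by total library size, which moved the latter median to -0.22, 25 were called higher and 11 lower. The filter itself favours peaks that differ: 16 of the 28 had passed it through the DE libraries alone. Of the 33 that passed in both groups, 11 were higher and 3 lower (33.3% and 9.09%), against 21.1% and 17.6% of all such peaks. Before any filter, the mean was higher in DE for 49 of the 67 peaks (73.1%) and for 47.6% of all peaks. Peaks near 1 gene share its surroundings and are not independent.

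**Figure D2:**
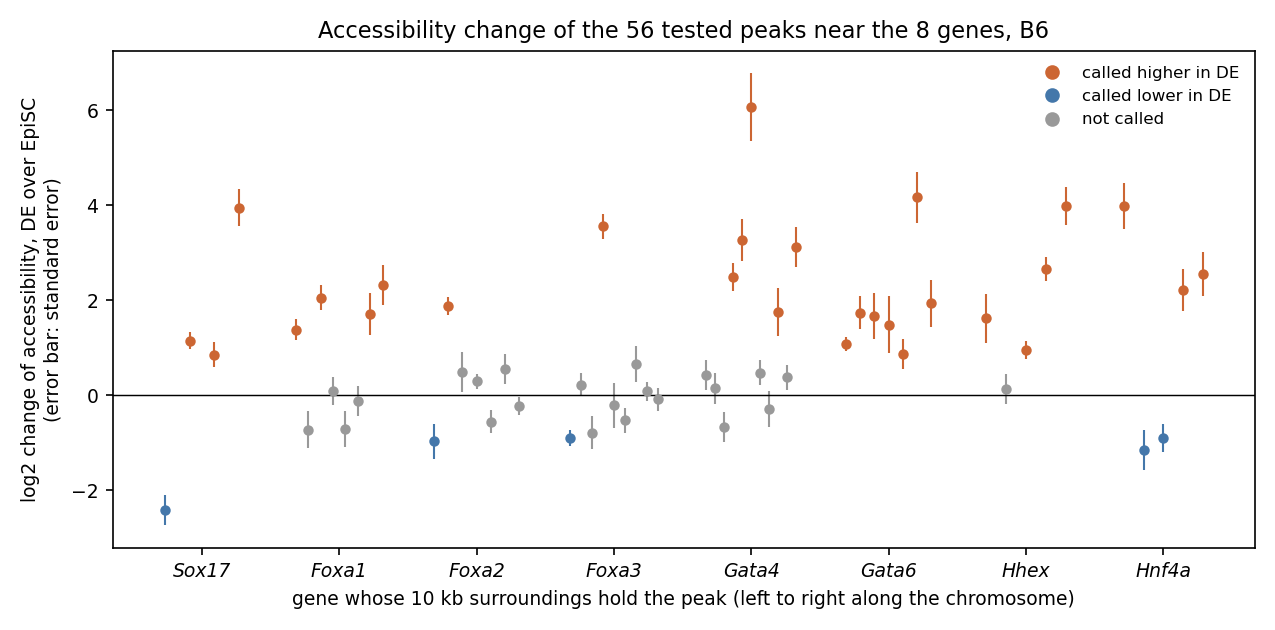
Log2 change of accessibility between B6 DE (n = 4) and B6 EpiSCs (n = 4), with its standard error, for the 56 tested peaks in or within 10 kb of each gene, in their order along the chromosome. All 7 tested peaks of Gata6 were called higher in DE, and 4 of them had passed the filter through the DE libraries alone. Most peaks of Foxa2 and Foxa3 were not called.

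The genes differed in how many of their peaks changed, as the plot of log2 changes per gene shows. All 7 tested peaks near Gata6 were called higher, 5 of them without overlap between the groups, as for 30.4% of all peaks tested. For Hhex 4 of 5 were higher and none lower, for Sox17 3 of 4 were higher and 1 lower, and for Hnf4a 3 of 5 were higher and 2 lower. For Gata4 5 of 11 and for Foxa1 4 of 8 were higher, and none was lower. For Foxa2 1 of 7 and for Foxa3 1 of 9 were higher, with 1 lower in each case. Among the peaks that passed the filter in both groups, the count called higher was 2 of 2 for Gata6, 2 of 2 for Sox17, 2 of 3 for Hhex, 2 of 5 for Foxa1, 1 of 6 for Gata4, 1 of 7 each for Foxa2 and Foxa3 and 0 of 1 for Hnf4a. Peaks that passed through the DE libraries alone had to be higher there to be tested, and their fitted changes are given as descriptions, without an adjusted p. The same holds in the other direction for a peak of Sox17 and a peak of Hnf4a that were called lower and had passed through the EpiSC libraries alone. These differences between genes were not tested.

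Near Sox17, a peak 9308 bp beyond the upper end of the gene, at chr1:4506734-4507067, had 38.3, 40.0, 43.8 and 31.4 CPM in DE replicates 2, 4, 44 and 51. In EpiSC replicates 1, 4, 44 and 51 it had 1.28, 5.41, 1.53 and 0.62 CPM. The groups were far apart, and EpiSC replicate 4 was the highest of its group. The peak passed the filter through DE alone, and its fitted log2 change was 3.94 (SE 0.39). A peak inside the gene, at chr1:4492955-4493123, went the other way, with 1.85, 3.29, 1.43 and 2.31 CPM in DE and 11.0, 10.4, 11.2 and 14.9 CPM in EpiSCs, a log2 change of -2.42 (SE 0.32). The next peak, at chr1:4493360-4493810, rose by 1.15 (SE 0.19). The levels of these neighbouring peaks differed in opposite directions. The peak that was lower in DE passed the filter through the EpiSC libraries alone, so its direction was set by the filter.

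Near Gata4, the peak with the largest rise of the 56 tested, at chr14:63231204-63231470 inside the gene, had 5.97, 5.27, 10.3 and 2.88 CPM in DE. In EpiSCs it had 0, 0.200, 0 and 0 CPM, so that only replicate 4 held any count. Its fitted log2 change of 6.06 (SE 0.72) rests on these near-empty libraries and depends on the model's handling of low counts, and the peak passed the filter through DE alone. Another 4 peaks inside Gata4 were called higher, of which 3 had log2 changes between 2.48 and 3.27, and 1 of the 4, at chr14:63208810-63209075, had passed the filter in both groups. The most accessible peak of Gata4, at chr14:63256004-63256242, had means of 9.35 CPM in DE and 7.24 CPM in EpiSCs and was not called (log2 change 0.37, SE 0.26, edgeR adjusted p 0.226). The peak at the lower end of Gata6, at chr18:11052262-11052687, overlaps the antisense gene Gata6os. It had 25.3, 25.6, 20.4 and 23.7 CPM in EpiSCs and 41.8, 49.5, 53.1 and 56.2 CPM in DE. Its log2 change was 1.07 (SE 0.15, edgeR adjusted p 3.08e-06), while a peak inside the gene, at chr18:11060233-11060447, which passed through DE alone, had means of 0.374 CPM in EpiSCs and 7.81 CPM in DE (log2 change 4.16, SE 0.53).

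The Hhex peak at chr19:37434440-37434873, which covers the printed sequence before its start, had 25.5, 25.5, 23.8 and 27.4 CPM in DE. In EpiSCs it had 9.92, 14.7, 11.7 and 16.1 CPM. The groups did not overlap, and it rose by 0.95 (SE 0.19, edgeR adjusted p 0.000232). A peak inside the gene, at chr19:37436821-37437100, rose by 2.65 (SE 0.25). Another, at chr19:37437765-37437866, passed through DE alone and had means of 0.513 CPM in EpiSCs and 8.56 CPM in DE (log2 change 3.99, SE 0.40).

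The Foxa1 peak at chr12:57545994-57546158, which takes in 47 of the printed bases before the start, had 21.4, 15.1, 18.0 and 17.3 CPM in DE. In EpiSCs it had 3.04, 5.81, 3.83 and 4.18 CPM, and it rose by 2.05 (SE 0.26, edgeR adjusted p 1.04e-06). The most accessible peak near Foxa1, at chr12:57538765-57539183, lay 1445 bp below the gene, had means of 20.2 CPM in DE and 7.64 CPM in EpiSCs and rose by 1.38 (SE 0.22). The largest fitted change, 2.32 (SE 0.42), was at chr12:57555591-57555752, from 1.42 to 7.47 CPM, in a peak that passed the filter through DE alone. Of the peaks called higher near Foxa1, 2 lie in the neighbouring gene Ttc6, which overlaps it. Near Foxa2, the 1 peak called higher lay 1812 bp below the gene, at chr2:148040694-148041065, with 42.2, 30.1, 40.6 and 39.8 CPM in DE and 9.60, 12.1, 7.40 and 11.5 CPM in EpiSCs, a rise of 1.88 (SE 0.19). A peak inside Foxa2, at chr2:148046316-148046567, had means of 32.3 CPM in DE and 26.2 CPM in EpiSCs, and was not called (edgeR adjusted p 0.115). The peak on the promoter window of Foxa2, at chr2:148046093-148046181, had means of 4.99 and 3.33 CPM and was not called either (log2 change 0.49, SE 0.43, edgeR adjusted p 0.336). The peak called lower, at chr2:148039524-148039679, lies in 9030622O22Rik and had a log2 change of -0.97 (SE 0.37). The groups overlapped, and it lost its call without DE replicate 44 (edgeR adjusted p 0.0754) and in the 3 libraries of each group that share replicate numbers (edgeR adjusted p 0.0648).

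Near Foxa3, a peak 5372 bp below the gene, at chr7:19007518-19007911, had 36.8, 35.4, 34.9 and 21.3 CPM in DE and 1.60, 3.51, 3.06 and 2.63 CPM in EpiSCs. DE replicate 51 was the lowest and still far above every EpiSC library, and the log2 change was 3.55 (SE 0.26, edgeR adjusted p 1.35e-09). The peak lies in no RefSeq gene, and other peaks taken as near Foxa3 lie in the neighbouring genes Irf2bp1 and Sympk. The peak at chr7:19003189-19003450, 9833 bp from the gene, fell by 0.89 on the log2 scale (SE 0.17).

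Hnf4a, whose transcript was near the limit of detection, had peaks whose counts differed between the groups. The peak at chr2:163530468-163530698 had 12.4, 11.0, 18.7 and 12.1 CPM in DE and 0.32, 1.502, 1.53 and 0 CPM in EpiSCs, a fitted log2 change of 3.98 (SE 0.47). A peak that takes in 109 of the printed bases before the internal start, at chr2:163547046-163547181, had 6.38, 5.10, 5.58 and 2.59 CPM in DE and 0.96, 1.10, 0.51 and 0.62 CPM in EpiSCs, with a fitted log2 change of 2.54 (SE 0.46). Both of these, and the third peak called higher, passed the filter through the DE libraries alone. The peak at the upstream start did not pass the filter and had means of 2.31 CPM in DE and 0.360 CPM in EpiSCs. Another 2 peaks inside the gene were called lower, at chr2:163532059-163532157 with a log2 change of -1.15 (SE 0.42) and at chr2:163535037-163535214, the most accessible one, with -0.90 (SE 0.29). The former passed the filter through the EpiSC libraries alone, so its direction was set by the filter. It lost its call without DE replicate 44, without EpiSC replicate 44 and in the libraries that share replicate numbers. The transcript had 33 counts or fewer in every B6 library.

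**Figure D3:**
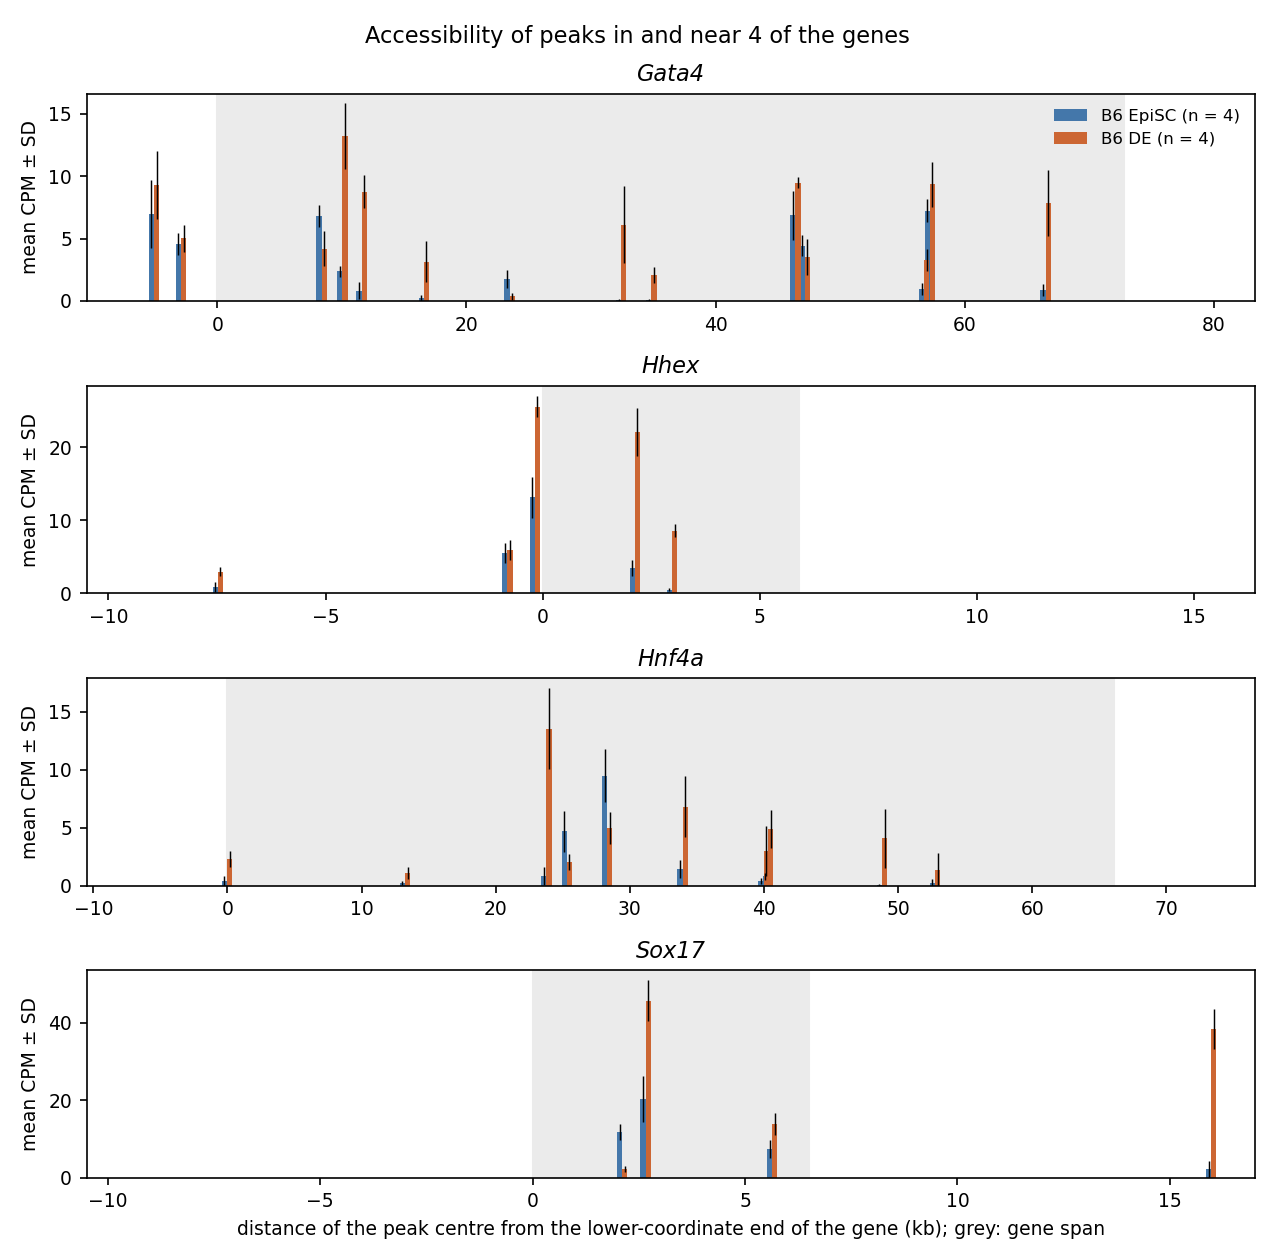
Mean accessibility in CPM with its SD in B6 EpiSCs (n = 4) and B6 DE (n = 4) at each peak in or within 10 kb of Gata4, Hhex, Hnf4a and Sox17, by distance of the peak centre from the lower-coordinate end of the gene (grey). Some peaks inside Hnf4a and Gata4 were near 0 in EpiSCs and more accessible in DE, and those tested had passed the filter through the DE libraries alone. Neighbouring peaks of Sox17 differed in opposite directions, and the one that was lower in DE had passed the filter through the EpiSC libraries alone.

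The comparison between genetic backgrounds asked whether EpiSCs differ before differentiation. None of the 7 factors tested, all but Foxa3, was called in any of the 3 comparisons of B6, PWK and B6.129 F1. The share of all genes called was 26.5% between PWK and B6, 2.84% between B6.129 F1 and B6 and 40% between PWK and B6.129 F1, all by edgeR. At an unadjusted p under 0.05 none of the 7 was counted either, against 39.6%, 24.4% and 49% of all genes in the same order of comparisons. The smallest p was 0.0939, for Gata6 between PWK and B6.129 F1. DESeq2's Wald test called none of them. Summed feeder markers were between 2072 and 2832 CPM in PWK, between 140 and 214 CPM in B6.129 F1 and between 77.0 and 2587 CPM in B6, and their part in these comparisons was not tested.

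Gata6 had 4.69, 2.10 and 3.71 CPM in PWK BioRep695, BioRep698 and the unnumbered library, and 5.15, 11.0 and 14.6 CPM in B6.129 F1 replicates 4, 9 and the unnumbered library. The PWK libraries lay below those of B6.129 F1, without overlap, as for 30.8% of all genes. The log2 change was -1.502 (SE 0.82, edgeR adjusted p 0.168). Fitted on these 2 groups alone, the change was -1.51 and was called (edgeR adjusted p 0.0202). Against B6, whose libraries had 16.2, 2.47, 12.9, 11.8 and 1.28 CPM, PWK overlapped, the log2 change being -1.34 (SE 0.75, edgeR adjusted p 0.213). The B6 libraries of Gata6 themselves spread 12.7-fold from lowest to highest.

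Sox17 had 9.29, 1.37, 8.93, 9.75 and 0.640 CPM in B6 EpiSCs, 2.64, 8.82 and 8.58 CPM in B6.129 F1 and 4.36, 2.51 and 1.99 CPM in PWK, in the order of libraries above. Its groups overlapped, with means of 6.68 ± 3.50 (SD, n = 3) in B6.129 F1, 6.00 ± 4.57 (SD, n = 5) in B6 and 2.95 ± 1.25 (SD, n = 3) in PWK. Hhex was ordered B6, B6.129 F1 and PWK, at 12.9 ± 9.78, 11.4 ± 2.67 and 7.86 ± 1.80 CPM. Foxa1 was at 11.6 ± 9.79 CPM in B6, 5.99 ± 0.987 in PWK and 4.82 ± 1.65 in B6.129 F1. Gata4 was at 7.82 ± 1.55 CPM in PWK, 7.64 ± 5.71 in B6 and 6.45 ± 3.85 in B6.129 F1, and Foxa2 at 42.9 ± 14.3, 37.6 ± 12.5 and 38.0 ± 29.3 CPM in the same 3 groups (all SD, n = 5 for B6 and n = 3 for the others). No neighbours in these orders were called different by edgeR's test. Foxa3 had 14 counts or fewer in every EpiSC library and was not tested. Hnf4a had 21, 12 and 9 counts in PWK BioRep695, BioRep698 and the unnumbered library and 13 or fewer in each other EpiSC library. Its log2 change between PWK and B6 was 1.41 (SE 0.96, edgeR adjusted p 0.299). Against B6.129 F1, with at most 9 counts each, its PWK libraries lay higher in CPM without overlap, as for 31.7% of all genes. That log2 change was 1.24 (SE 1.10, edgeR adjusted p 0.400).

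The single DBA library allows no test. Foxa2 had 89.9 CPM there, above the highest B6 library at 50.8 CPM, and 2.39 times the B6 mean. Of 12797 genes compared in this way, 2.86% were more than 2-fold above the B6 mean. The other 7 factors lay within the range of the B6 libraries, with Gata4 near its lower end at 2.05 CPM.

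**Figure D4:**
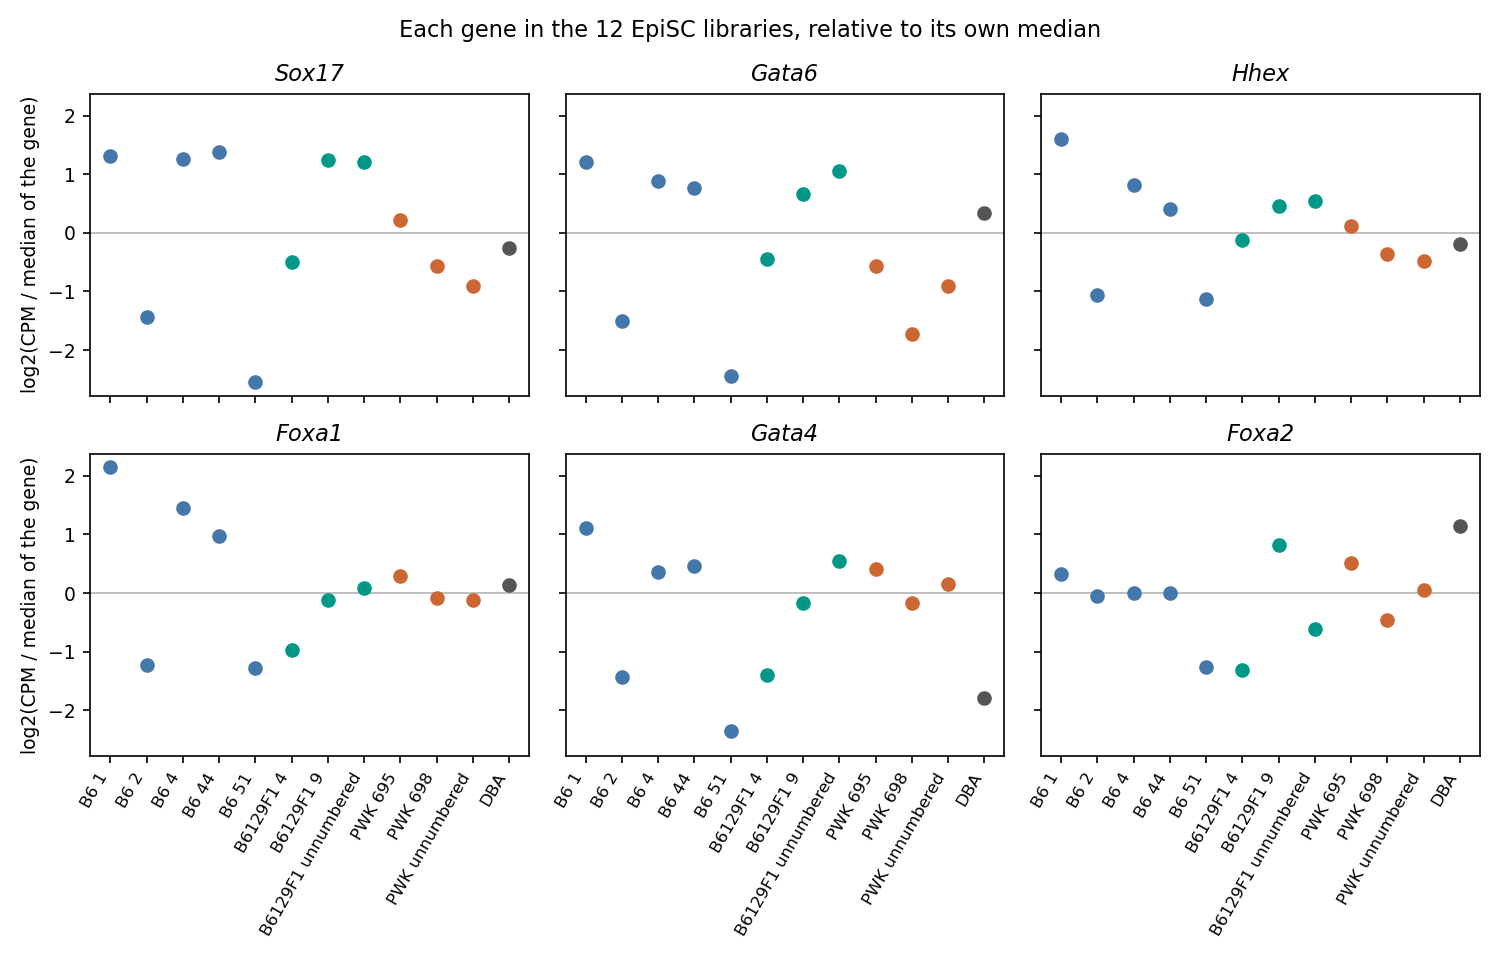
Level of each gene in the 12 EpiSC RNA-seq libraries as log2 of CPM over the median of that gene, with B6 in blue, B6.129 F1 in green, PWK in orange and DBA in grey. B6 replicates 2 and 51 were low for Sox17, Gata6, Hhex, Foxa1 and Gata4. Over all 12 libraries Foxa2 followed another order. Among the 5 B6 libraries its order was that of Gata6, Hhex and Foxa1, with replicate 51 the lowest.

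Several of the factors were high or low in the same EpiSC libraries, as the plot of levels relative to the median shows. B6 replicate 51 was the lowest of 12 libraries for Sox17, Foxa1, Gata4, Gata6 and Hhex, and B6 replicate 1 was the highest for Foxa1, Gata4, Gata6 and Hhex. Over the 12 libraries, log2 levels of Sox17 and Gata6 had a Pearson's r of 0.930 and a Spearman's rho of 0.888 (permutation test, two-sided, p 6e-05 and 0.00025, adjusted 0.0003 and 0.00125 over the 15 relations among 6 factors). Sox17 and Hhex had an r of 0.912 and a rho of 0.916 (permutation p 3e-05 and 9e-05, adjusted 0.0003 and 0.000675). Gata6 and Hhex had an r of 0.889 and a rho of 0.937 (permutation p 4e-05 and 2e-05, adjusted 0.0003 and 0.0003). Without the 2 libraries farthest from the median of the first gene, r was 0.896, 0.916 and 0.882. Without B6, over the 7 other libraries, r was 0.805, 0.982 and 0.816. The 5 B6 libraries, the 3 each of PWK and B6.129 F1 and the single DBA library are too few for a value of their own. The permutations, here and below, mixed the libraries of all backgrounds, so differences between backgrounds also enter the p-values.

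For Gata4 and Foxa1 the relations rested on the B6 libraries. Gata4 and Gata6 had an r of 0.631 and a rho of 0.748 (permutation test, two-sided, p 0.0302 and 0.00688, adjusted 0.0453 and 0.0123). Without the 2 farthest libraries the r was 0.642, and without B6 the r was -0.01. Foxa1 and Hhex had an r of 0.891 and a rho of 0.762 (permutation p 0.00016 and 0.00556, adjusted 0.0006 and 0.0119). Without the 2 farthest libraries the r was 0.754, and without B6 it was 0.211. Foxa2 had an r between 0.288 and 0.451 with the 5 others, and none passed the test (permutation p between 0.143 and 0.361, adjusted 0.180 to 0.361, rho between 0.189 and 0.475 with adjusted p between 0.167 and 0.557). Without B6, the r of Foxa2 ran from -0.073 with Gata4 to 0.692 with Foxa1, and the latter was 0.448 over all 12 libraries. Over the same libraries, the genes nearest to Gata6 were Lhx1, at an r of 0.981, Gsc and A4galt. Those nearest to Sox17 were Fzd5, at 0.963, Cfc1, a co-receptor of Nodal, and Fgf10. Those nearest to Foxa2 were Rfx2, at 0.893, Grrp1 and Camk1g. The summed feeder markers were 77.0 CPM in B6 replicate 1, the highest library for 4 of the factors, and 2587 CPM in B6 replicate 51, the lowest library for 5. Their part in the levels of the factors was not tested.

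Accessibility near the factors was compared between PWK and B6 EpiSCs in 49 tested peaks of 60. None was called, against 5.11% of 137667 peaks tested, by edgeR. At an unadjusted p under 0.05 there were 5 of the 49 (10.2%), against 16.9% of all peaks, and DESeq2's Wald test called none. Without overlap, PWK was higher at 2 of the 49 peaks, both near Gata4, against 12% of all peaks, and lower at 6, against 14.3% of all. The 6 were 2 near Foxa1 and 1 each near Foxa2, Foxa3, Gata4 and Hhex, with log2 changes between -0.32 and -2.51 and none called. A peak below Gata4, in the gene Neil2 at chr14:63193714-63193965, had 16.7 and 12.04 CPM in the PWK libraries and 6.53, 3.65, 7.54 and 10.1 CPM in B6. Its log2 change was 1.07 (SE 0.35, edgeR adjusted p 0.0981), and the DBA library had 12.6 CPM. The Hhex peak at the start had 17.0 and 13.6 CPM in PWK and between 9.64 and 15.9 CPM in B6, and the groups overlapped. The peak at the lower end of Gata6 had 24.1 and 17.6 CPM in PWK and between 19.9 and 26.4 CPM in B6. For the 11 most accessible and promoter-window peaks of the factors in this table, log2 changes lay between -0.59 and 1.07. Only 2 PWK libraries entered this comparison, which limits its precision.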

How the data were processed

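RNA-seq (19 of the series' 30 samples) and ATAC-seq (11) were deposited as counts per gene and per peak. The deposited counts were made on mm10, and the submitters' processing notes name Salmon, featureCounts and DESeq2 for RNA and fastp, Bowtie2, MACS2, featureCounts and DESeq2 for ATAC. Their versions, order and the strand setting of the counting are not given in the sources used here. Columns were matched to samples by name. Another 17 columns were not used, and 3 PWK DE samples were not analysed here.

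Counts were tested with edgeR 4.0.16 in R 4.3.3 (quasi-likelihood test, trimmed mean of M-values scaling, filterByExpr, Benjamini-Hochberg adjustment over all features, threshold 0.05). B6 DE and EpiSCs were fitted together, and EpiSC backgrounds together in one fit. The code was tested on simulated data. Alternatives were DESeq2 1.42.0, other scalings and filters, other windows, a replicate block and leaving out each library. Total counts per library set the precision, and floors of 3 counts cover counting error only. Gene and peak positions were matched on mm10 and GRCm38.p6, the same assembly. Peak coordinates are as the files give them.

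The 8 genes and the gene lists were chosen with earlier results of these data known. Named in the text were the 8 genes, up to 3 called genes per list in each direction, the 3 genes most like a factor, and for each factor the most accessible peak, the called peaks with the largest rise and fall and any peak on a promoter window. A few others, such as Tal1, Eomes, Cxcr4 further called peaks of Sox17, Gata4, Gata6 and Hhex and the non-overlapping Gata4 peak, were named after their values were seen. Likeness used log2 CPM with a prior count of 2. The result of 1 listed gene that the rule named is not reported here.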

Additional observations from a re-analysis of the deposited data

Results flagged for a closer look

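In 60 groups of libraries of the named genes and peaks, 3 had 1 library far from the others, and chance gives about 1 in 20 groups. At the Foxa3 peak chr7:19003189-19003450, DE replicate 2 had 26.3 CPM and the other DE libraries between 19.0 and 20.2. At the Foxa3 peak chr7:19007518-19007911, DE replicate 51 had 21.3 CPM and the others between 34.9 and 36.8. Inside Gata4, at chr14:63231204-63231470, EpiSC replicate 4 had 0.200 CPM, from 2 counts, and the other EpiSC libraries 0.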

How the results depend on the processing

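The 7 factors called higher in DE kept their direction and call under each alternative run, with log2 changes of 7.51 to 8.62 for Sox17 and 1.28 to 1.65 for Foxa2 as the extremes. Foxa3 dropped out where 10 counts in every library were asked for. Of the peaks near the 8 genes, 11 were called lower in DE with total library size, 8 with DESeq2, 8 without a filter, 3 within 2 kb and 14 within 50 kb, where 51 were higher. With at least 10 counts in every library 11 were higher, and 9868 and 8144 of all peaks were called higher and lower, as fewer peaks were tested. Total library size moved the median log2 change of all features to -0.10 for RNA and -0.22 for ATAC between DE and EpiSCs, and to 0.12 for ATAC between PWK and B6.

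The shared replicate numbers were not taken as pairs, since the labels do not say what they share and not every correlation was over 0.1, which leaves pairing of the RNA libraries unclear: the deviations of same-numbered RNA libraries had correlations of 0.0958, 0.0881, 0.183 and 0.237, each DE library correlating best with its own number, and those of ATAC libraries 0.0213, -0.01 and 0.0485. With a replicate block, 3792 genes were called higher and 3939 lower, 7 of the factors higher, 32883 peaks higher and 21504 lower, and 27 and 4 of the peaks near the factors. The Foxa2 peak at chr2:148039524 was not called with the block (adjusted p 0.102 in edgeR's test) nor in the same libraries without it (0.0648). The same held for the Hnf4a peak at chr2:163532059, which had passed the filter through the EpiSC libraries alone.

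Between EpiSC backgrounds, leaving out 1 library gave 1126 to 2428 genes higher and 1317 to 2476 lower in PWK against B6, and 0 to 1001 higher and 0 to 951 lower in B6.129 F1 against B6. The latter counts were 884 and 1123 with DESeq2, 146 lower without a filter, and 0 and 0 with only the groups compared. In PWK against B6.129 F1, 1 factor, Gata6, was lower with only the groups compared. With total library size the split was 2226 higher and 1708 lower for PWK against B6 (1781 and 2142 as reported), and 3606 and 2180 for PWK against B6.129 F1 (3067 and 2869). PWK against B6 peaks numbered 667 and 1443 with at least 10 counts in every library, and 1001 to 2027 higher and 2628 to 5418 lower with 1 library left out. Near the factors 0 to 1 were then higher and 0 to 1 lower, and within 50 kb 1 was higher and 3 lower.

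Signs of uncalled differences turned when 1 library was left out. For PWK against B6, log2 changes ran from -0.22 to 0.45 for Gata4 and from -0.077 to 0.40 for Foxa2. For B6.129 F1 against B6, they ran from -0.86 to 0.36 for Foxa2, -0.79 to 0.17 for Gata4, -0.43 to 0.31 for Hhex, -0.16 to 0.51 for Sox17, -0.16 to 0.52 for Gata6 and -0.26 to 0.68 for Hnf4a. For PWK against B6.129 F1, they ran from -0.15 to 1.06 for Foxa2 and -0.051 to 0.83 for Gata4. The Foxa3 peak at chr7:19023684 ran from -0.47 to 1.40 and the Gata6 peak at chr18:11052278 from -0.42 to 0.028. The cause was not tested for these.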
